A study of Mus musculus with 12 samples.

Results

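The genes of the endoplasmic reticulum (ER) stress and unfolded protein response were described in CD4 T effector cells specific for insulin, recovered from pancreatic islets and spleen of NOD.scid mice. The list held 33 genes, chosen by name for their role in the response, with earlier results of these data known. All 33 had entries in the deposited matrix of 24383 genes, in which the entries of a gene were summed. Of the 10089 genes with at least 1 FPKM (fragments per kilobase of transcript, scaled to the number of mapped fragments) in at least 3 libraries, 31 were members, and Derl3 and Chac1 did not pass this filter. The libraries formed 4 groups of 3: islet cells of Y16A origin, islet cells of WT origin, spleen cells of Y16A origin and spleen cells of WT origin. Y16A origin means donors of the NOD.InsY16A Tg strain, which carries an insulin transgene, and WT origin means NOD donors, which develop autoimmune diabetes. Donors of both strains were females of 6 to 8 weeks that had been immunized with Insulin C19A, and their splenocytes were cultured with 10 µM peptide before CD4 T cells were purified, per the labels' protocols. The purified cells were over 95% pure with under 1% Foxp3+ cells, and they were given to female NOD.scid recipients of 8 to 10 weeks. NOD.scid mice lack T and B cells of their own but keep their other cells, and no sort of the recovered cells is named in the labels. The islet libraries carry the word pancreas in their titles. The genotype field of the labels goes against the titles and the design text, which were used to assign origin. Islet and spleen libraries with the same number came from the same mouse, per the titles, so there were 3 mice per origin.

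The ER is where secreted and membrane proteins are folded. When unfolded proteins build up there, the sensors IRE1 (Ern1), PERK (Eif2ak3) and ATF6 signal to the nucleus. IRE1 splices the mRNA of Xbp1, cleaved ATF6 enters the nucleus, and both raise chaperones, disulfide isomerases and the machinery of ER-associated degradation. PERK phosphorylates eIF2alpha, which lowers translation in general while translation of ATF4 goes up, and ATF4 raises genes of amino acid supply, CHOP (Ddit3) and GADD34 (Ppp1r15a), a phosphatase subunit that reverses the phosphorylation. Other eIF2alpha kinases reach ATF4 without ER stress. In T cells, activation enlarges the ER and engages parts of this response.

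Few of the tested genes, of this response or not, passed the test in these cells. No member passed the threshold of an adjusted p under 0.05 (limma on log2(FPKM + 1), Benjamini-Hochberg over 10089 genes) in islet against spleen of either origin or in Y16A against WT of either tissue. Of all tested genes, 1.17% (Y16A) and 0.813% (WT) passed in islet against spleen, and 0.0% in Y16A against WT of either tissue. Over both origins together, 1 of 31 members passed, beside 2.31% of all tested genes. This member, Atf4, was higher in islet cells. Among pathway genes outside the 33, Ppp1r15a was higher in islet cells of both origins, by 2.82 (Y16A) and 2.93 (WT) on the log2 scale. The chaperone Hspa5 and the transcription factor Xbp1 did not pass the test in any comparison.

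The libraries were estimated to hold 4.28 to 8.28 M mapped fragments, from the steps of low FPKM values, and 7456 to 8676 genes reached 1 FPKM in each. None of the 12 T cell markers was listed at 0 across a group. They summed to at least 3106 FPKM in islet Y16A and at most 2735 FPKM in spleen Y16A libraries. In WT cells their sums overlapped, at 2416 to 3453 FPKM in islet and 1863 to 2807 FPKM in spleen libraries. Relative to the median gene, their median log2 change, islet over spleen, was -0.05 in Y16A and -0.12 in WT cells. Over both origins, 1 of 12 passed in limma, higher in islet. Other cells' RNA moved with tissue as well. The 35 acinar and duct markers summed to 1920 to 5147 FPKM in islet Y16A and 2080 to 6856 FPKM in islet WT libraries, against 9.34 to 12.8 FPKM in spleen Y16A and 3.88 to 12.7 FPKM in spleen WT libraries. Of these markers 2 of 35 were listed at 0 across each islet group, Ptf1a among them, against 17 in spleen Y16A and 22 in spleen WT. The 15 endocrine markers summed to 1.58 to 55.8 FPKM in islet Y16A and 28.8 to 1085 FPKM in islet WT libraries, against 1.53 to 8.82 FPKM in spleen Y16A and 0.221 to 2.14 FPKM in spleen WT libraries. The 10 neutrophil markers summed to at most 4.64 FPKM in islet libraries and to at least 95.3 FPKM in spleen libraries. The 10 erythroid and platelet markers summed to 5.13 to 35.5 FPKM in islet Y16A and 5.67 to 124 FPKM in islet WT libraries, against 126 to 2384 FPKM in spleen Y16A and 545 to 1481 FPKM in spleen WT libraries. The 15 macrophage and dendritic markers summed to 77.6 to 117 FPKM and 47.7 to 198 FPKM in the islet groups (Y16A, WT), against 184 to 653 FPKM and 176 to 271 FPKM in the spleen groups. Plasma cells are rich in ER chaperones, and acinar and endocrine cells also secrete proteins, which are folded in the ER. The 10 plasma and B cell markers summed to 2.502 to 7.84 FPKM in islet Y16A and 1.82 to 22.3 FPKM in islet WT libraries, against 0.616 to 3.55 FPKM in spleen Y16A and 2.23 to 7.65 FPKM in spleen WT libraries, with Mzb1 listed at 0 in all 12 libraries. The part of these cells in the results below was not tested. In bulk libraries, fewer cells of a type and less RNA per cell cannot be told apart.

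Levels of the 33 genes spanned the range from about 100 FPKM to values near the limit of detection. The highest means over all 12 libraries were 106.4 FPKM for Sec61b, a subunit of the Sec61 translocation channel, 106.2 FPKM for Hspa5 (BiP, the main Hsp70 chaperone of the ER) and 104 FPKM for Calr (calreticulin, a lectin chaperone). The sensors were low: Eif2ak3 averaged 5.71 FPKM, Ern1 1.15 FPKM and Atf6 0.768 FPKM. Derl3, a retrotranslocation protein most abundant in secretory cells, was listed at 0 in 10 libraries, with 1.95 FPKM in islet WT 1 and 2.65 FPKM in spleen WT 1. Chac1, an ATF4 target that degrades glutathione, was listed above 0 only in spleen Y16A 2, at 1.01 FPKM. A value of 3 fragments on a transcript of 1500 bp corresponds to 0.242 to 0.467 FPKM at these depths, and such limits cover counting error only.

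The spread between replicates differed among the members. Xbp1 had the smallest within-group SD, 0.18 on the log2(FPKM + 1) scale, and Ddit3 the largest, 1.56. For the 14 members above 20 FPKM the median within-group SD was 0.372, beside 0.455 for the 1559 tested genes at that level. For the 17 members at 20 FPKM or less it was 0.597, beside 0.640 for 8530 tested genes. The summed FPKM of the 33 genes made up 0.328 to 0.413% of all FPKM in islet Y16A, 0.304 to 0.350% in islet WT, 0.353 to 0.390% in spleen Y16A and 0.338 to 0.402% in spleen WT libraries. Islet WT libraries lay below spleen Y16A libraries, and the ranges of the other pairs of groups overlapped.

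**Figure D1:**
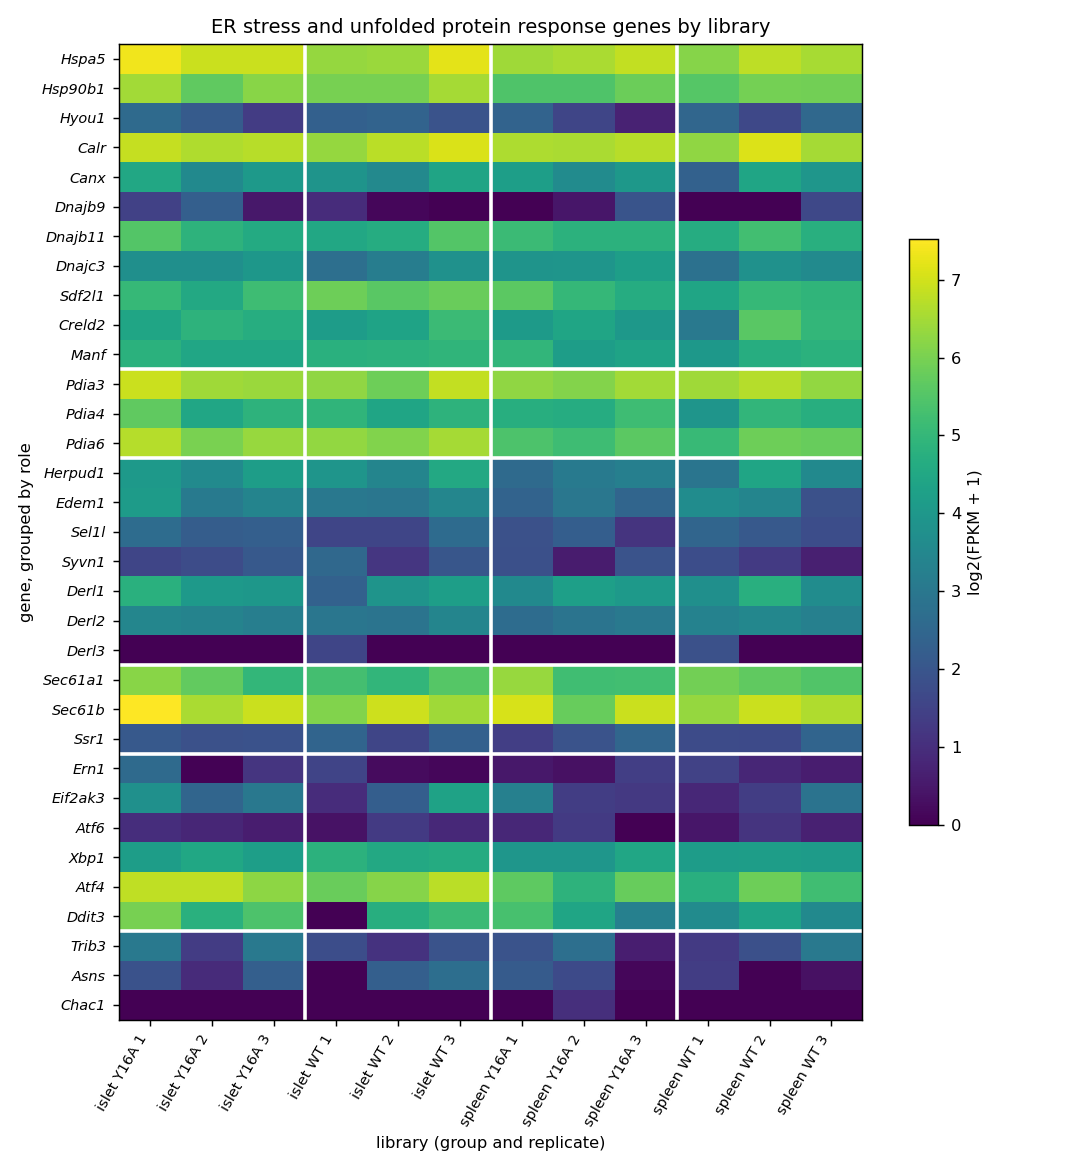
Heat map of log2(FPKM + 1) for the 33 genes (rows, grouped by role) in the 12 libraries (columns, grouped by tissue and origin); color runs from 0 (dark) to the highest value (yellow). Hspa5, Calr, Sec61b and Pdia3 were high in every library, while Derl3 and Chac1 were listed at 0 in 10 and 11 libraries.

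The first question was whether the response differs between cells that entered the islets and cells in the spleen of the same mice. In Y16A cells, 0 of 31 members passed the test, beside 1.17% of all tested genes (0.971% higher in islet), and 3 members had an unadjusted p under 0.05, beside 10.2% of tested genes. In WT cells, 0 of 31 members passed, beside 0.813% (0.634% higher in islet). An unadjusted p under 0.05 was found for 3 members, beside 8.69%. With both origins averaged, 1 of 31 members passed, beside 2.31% (1.88% counting those higher in islet). An unadjusted p under 0.05 was found for 2 members, beside 13.6%. The average uses the same libraries as the separate comparisons and is no second set of data. The members' median log2 change, islet over spleen, was 0.09 in Y16A and -0.07 in WT cells and -0.02 over both, beside -0.09, -0.06 and -0.08 over all tested genes. From each log2 change the median over genes above 5 FPKM was subtracted (0.326 in Y16A, 0.156 in WT and 0.246 over both). All p-values, here and below, come from the fit before that step and test the change without the subtraction. Intervals are centered on the printed change. Counts of mice with the higher value in islet, here and below, use FPKM as listed, without that subtraction. The share of all tested genes with such counts was not computed. The values of islet and spleen libraries did not overlap for 6 members in Y16A cells, all higher in islet, beside 18.3% of tested genes (14.6% higher in islet). They did not overlap for 4 members in WT cells, all higher in islet, beside 11.4% (7.51% higher in islet).

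Among the sensors and transcription factors, Atf4 was the member that passed. Atf4 had 109.7, 110.1 and 74.6 FPKM in islet Y16A libraries and 54.7, 70.1 and 106 FPKM in islet WT libraries. It had 49.4, 28.4 and 54.0 FPKM in spleen Y16A libraries and 26.0, 57.2 and 36.1 FPKM in spleen WT libraries. The islet value was above the spleen value in 6 of 6 mice, and the groups did not overlap in Y16A cells. In WT cells the lowest islet library lay below the highest spleen library. These values sum 2 transcript entries. On the entry above 0 in all 12 libraries, islet WT 2 had 43.95 FPKM and spleen WT 2 had 57.17 FPKM. On that entry islet Y16A 3 had 54.43 FPKM and spleen Y16A 3 had 54.0 FPKM. The other entry was above 0 in 7 libraries, none of them spleen Y16A. Over both origins the log2 change was 0.82 with an SE of 0.26 (95% confidence interval 0.26 to 1.37) and a limma adjusted p of 0.0413. Within origins it was 0.84 with an SE of 0.37 in Y16A (adjusted p 0.213, limma) and 0.80 with an SE of 0.37 in WT (adjusted p 0.437, limma). The call was close to the threshold. Of 12 fits that each left out 1 library it held in 3, those without islet Y16A 3, islet WT 1 or spleen WT 2, and was lost without any of the other 9, with adjusted p between 0.0182 and 0.114 and log2 changes of 0.71 to 0.90. Rescaling the libraries without the markers of other cells gave an adjusted p of 0.0717 at a log2 change of 0.81. Using only the highest transcript entry of each gene gave 0.67 and an adjusted p of 0.171.

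Ddit3 encodes CHOP, a transcription factor that ATF4 raises and that can promote cell death. It had 62.1, 26.2 and 42.2 FPKM in islet Y16A libraries and 0, 25.4 and 34.2 FPKM in islet WT libraries, against 39.1, 20.3 and 8.73 FPKM in spleen Y16A and 11.3, 19.4 and 11.0 FPKM in spleen WT libraries. The value listed at 0 in islet WT 1 set it apart from its group. The log2 change, islet over spleen, was 0.73 with an SE of 1.09 in Y16A (limma adjusted p 0.806) and -0.72 with an SE of 1.09 in WT (adjusted p 0.962), and without islet WT 1 the WT value was 0.74. The Ddit3 gene overlaps Mars on the opposite strand, and the strand setting of the counting is not given in the sources used here. The PERK gene Eif2ak3 ranged from 4.46 to 12.6 FPKM in islet Y16A and 0.951 to 19.4 FPKM in islet WT libraries, against 1.37 to 8.69 FPKM in spleen Y16A and 0.788 to 6.28 FPKM in spleen WT libraries. Its islet value was the higher one in 6 of 6 mice, but the groups overlapped and it did not pass the test. Ern1 and Atf6 stayed at or under 5.08 and 1.44 FPKM in all libraries, with overlapping groups.

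Xbp1 was the steadiest member. It had 17.3, 21.4 and 17.5 FPKM in islet Y16A and 27.8, 22.5 and 23.5 FPKM in islet WT libraries, against 14.4, 14.5 and 20.7 FPKM in spleen Y16A and 16.9, 17.1 and 16.7 FPKM in spleen WT libraries. The islet and spleen libraries overlapped in Y16A cells and did not overlap in WT cells. The log2 change was -0.15 in Y16A (95% interval -0.87 to 0.58, limma adjusted p 0.911) and 0.35 in WT (-0.37 to 1.07, adjusted p 0.758). The matrix holds 2 transcript entries for Xbp1 and does not say which is the spliced form. In islet WT 3 all 23.5 FPKM stood on 1 entry, while in 8 libraries all of the signal stood on the other entry, so splicing was not read from these values.

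**Figure D2:**
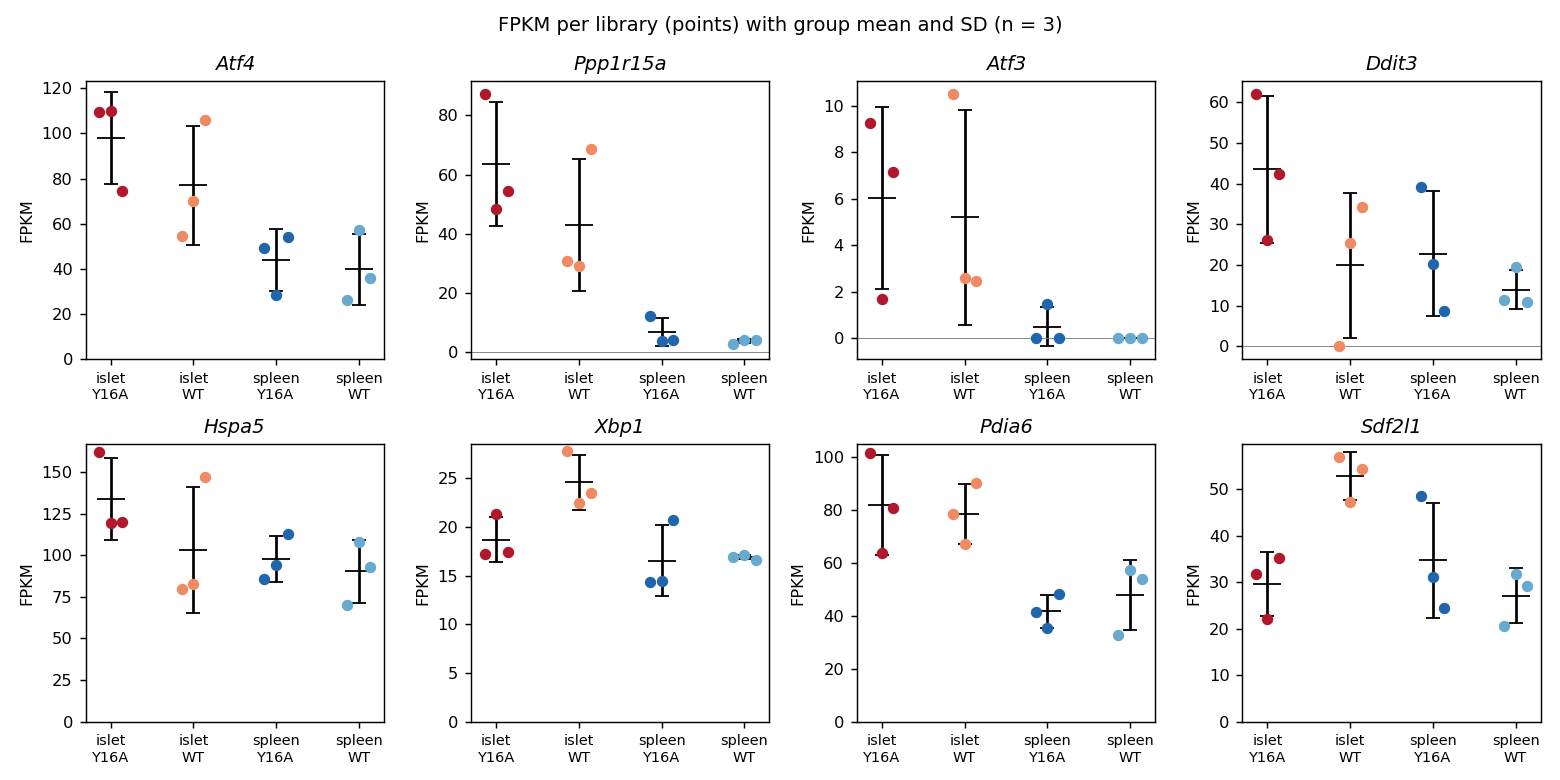
FPKM per library (points) for 8 genes in the 4 groups, with the group mean (long bar) and SD (n = 3 each); each panel has its own axis. Ppp1r15a lay at 29.3 FPKM or more in islet libraries and at 12.4 FPKM or less in spleen libraries, while the islet and spleen libraries of Ddit3 overlapped in both origins and those of Hspa5 in WT cells.

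The 11 chaperones and cochaperones gave no call. Hspa5 had 162, 119 and 120.2 FPKM in islet Y16A and 79.7, 83.0 and 147 FPKM in islet WT libraries, against 85.7, 94.3 and 113 FPKM in spleen Y16A and 70.1, 108 and 92.8 FPKM in spleen WT libraries. All 3 islet libraries lay above the spleen libraries in Y16A cells, and the groups overlapped in WT cells. Relative to the median gene the log2 change was 0.12 in Y16A (95% interval -0.53 to 0.76, limma adjusted p 0.676) and -0.0021 in WT (-0.65 to 0.64, adjusted p 0.962). The chaperone list had a median log2 change of -0.22 in Y16A and -0.07 in WT cells, with members between -0.52 and 0.28 in Y16A and between -0.34 and 0.80 in WT. Hsp90b1 (GRP94, the Hsp90 of the ER) ranged from 50.1 to 88.3 FPKM in islet Y16A and 61.7 to 90.3 FPKM in islet WT libraries. In spleen it ranged from 42.7 to 56.0 FPKM in Y16A and 45.5 to 61.3 FPKM in WT libraries. Its FPKM was higher in the islet library of 6 of 6 mice without passing the test. Relative to the median gene its log2 change was 0.21 in Y16A and 0.19 in WT cells, each with an SE of 0.32. Its groups overlapped in Y16A and did not overlap in WT cells. Calr ranged from 97.6 to 115 FPKM in islet Y16A and 80.4 to 137 FPKM in islet WT libraries, against 94.7 to 104 FPKM in spleen Y16A and 77.1 to 140.0 FPKM in spleen WT libraries, and these ranges overlapped. Hyou1, a large Hsp70 relative, Canx (calnexin), the BiP cochaperones Dnajb11 and Dnajc3, and the secreted or ER-held factors Creld2 and Manf also overlapped between islet and spleen in both origins. Dnajb9, a BiP cochaperone known as a target of XBP1, was listed at 0 in 4 libraries and reached at most 3.85 FPKM, in islet Y16A 2.

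Sdf2l1, a partner of ER chaperones and a sensitive marker of ER stress, was the 1 member with an unadjusted p under 0.05 in the test of whether the tissue difference depends on origin. It had 31.8, 22.0 and 35.1 FPKM in islet Y16A and 57.0, 47.2 and 54.3 FPKM in islet WT libraries, against 48.5, 31.2 and 24.4 FPKM in spleen Y16A and 20.6, 31.7 and 29.1 FPKM in spleen WT libraries. The 3 islet WT libraries lay above all islet Y16A and all spleen WT libraries. Islet over spleen, the log2 change in WT cells was 0.80 with an SE of 0.35 (limma unadjusted p 0.0143, adjusted p 0.393). Y16A over WT in islet, it was -1.09 with an SE of 0.35 (limma unadjusted p 0.0291, adjusted p 0.966). Before the shifts were subtracted these changes were 0.95 and -0.83, and the p-values belong to those. The difference between the origins' tissue changes, Y16A minus WT, was -1.31 with an SE of 0.50 (limma adjusted p 1.00), so none of the 3 passed after adjustment. The authors' deposited table for islet Y16A against islet WT, whose FPKM lie on another scale, lists Sdf2l1 at 93.8 and 205 FPKM with p 0.00065 and q 0.0665, the lowest q of any member there. The endocrine marker sums were 1.58 to 55.8 FPKM in islet Y16A and 28.8 to 1085 FPKM in islet WT libraries, ranges that overlap, and their part in the Sdf2l1 values was not tested.

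Of the protein disulfide isomerases, Pdia6, an isomerase that works with BiP, separated the tissues. It had 102, 63.9 and 80.8 FPKM in islet Y16A and 78.4, 67.2 and 90.2 FPKM in islet WT libraries, against 41.6, 35.6 and 48.2 FPKM in spleen Y16A and 32.7, 57.3 and 53.8 FPKM in spleen WT libraries. All 6 islet libraries lay above all 6 spleen libraries, beside 1.97% of tested genes that separated in either direction and 1.68% in this one, and Pdia6 was the 1 member with this pattern. The log2 change over both origins was 0.59 with an SE of 0.23 and missed the threshold, with a limma adjusted p of 0.0626. It was 0.62 with an SE of 0.32 in Y16A (limma adjusted p 0.251) and 0.58 with an SE of 0.32 in WT cells (adjusted p 0.539). The Pdia6 gene overlaps Atp6v1c2 on the opposite strand. Pdia3, which works with calnexin and calreticulin on glycoproteins, ranged from 83.4 to 119.8 FPKM in islet Y16A and 57.6 to 112 FPKM in islet WT libraries, against 68.3 to 88.8 FPKM in spleen Y16A and 77.5 to 102 FPKM in spleen WT libraries. Pdia4 ranged from 20.7 to 50.7 FPKM and 20.6 to 29.2 FPKM in the islet groups, Y16A and then WT, against 24.5 to 35.3 FPKM and 14.2 to 29.7 FPKM in the spleen groups. Both overlapped in each origin.

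ER-associated degradation returns misfolded proteins to the cytosol for the proteasome. Herpud1, a membrane protein of this machinery that is strongly raised by ER stress, had 15.6, 11.1 and 17.2 FPKM in islet Y16A and 14.1, 9.79 and 22.1 FPKM in islet WT libraries. In spleen it had 5.04, 7.64 and 8.45 FPKM in Y16A and 6.52, 20.5 and 10.8 FPKM in WT libraries. The Y16A groups did not overlap and the WT groups did. The log2 change in Y16A cells was 0.64 with an SE of 0.46 (limma unadjusted p 0.0496, adjusted p 0.490). These p-values test the larger change before the shift of 0.326 was subtracted, not the printed one. Edem1, a lectin that marks glycoproteins for degradation, and Derl2, a membrane protein of the retrotranslocation complex, also had all 3 islet Y16A libraries above the 3 spleen Y16A libraries. Edem1 ranged from 7.38 to 16.6 FPKM in islet Y16A libraries, against 4.28 to 6.92 FPKM in spleen Y16A libraries. Derl2 ranged from 8.33 to 9.96 FPKM in islet Y16A libraries, against 5.35 to 7.26 FPKM in spleen Y16A libraries. In WT cells both overlapped, and neither passed the test in any comparison. The ubiquitin ligase Syvn1 (HRD1) stayed between 0.498 and 4.88 FPKM, its partner Sel1l between 1.20 and 5.35 FPKM and Derl1 between 4.02 and 26.7 FPKM over all 12 libraries, with overlapping groups. The list's median log2 change was 0.23 in Y16A and -0.17 in WT cells over 6 tested members.

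Sec61b and Sec61a1, genes of the channel through which proteins enter the ER, were among the more abundant members. Sec61b ranged from 94.4 to 183 FPKM in islet Y16A and 67.2 to 122 FPKM in islet WT libraries, against 53.2 to 133 FPKM in spleen Y16A and 79.5 to 119 FPKM in spleen WT libraries. The channel subunit Sec61a1 ranged from 29.6 to 71.3 FPKM in islet and from 36.2 to 82.0 FPKM in spleen libraries. Ssr1, a subunit of the translocon-associated protein complex, ranged from 1.98 to 4.40 FPKM in islet and from 1.64 to 4.57 FPKM in spleen libraries. All 3 overlapped between tissues, and their log2 changes over both origins lay between -0.46 and -0.10. Of the targets of ATF4 and CHOP, Trib3, a pseudokinase that dampens ATF4 and CHOP, ranged from 1.15 to 7.31 FPKM in islet and from 0.542 to 7.20 FPKM in spleen libraries. Asns, the asparagine synthetase gene, reached 5.63 FPKM in islet and 3.44 FPKM in spleen libraries and was listed at 0 in 1 library of each tissue. Neither passed the test.

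**Figure D3:**
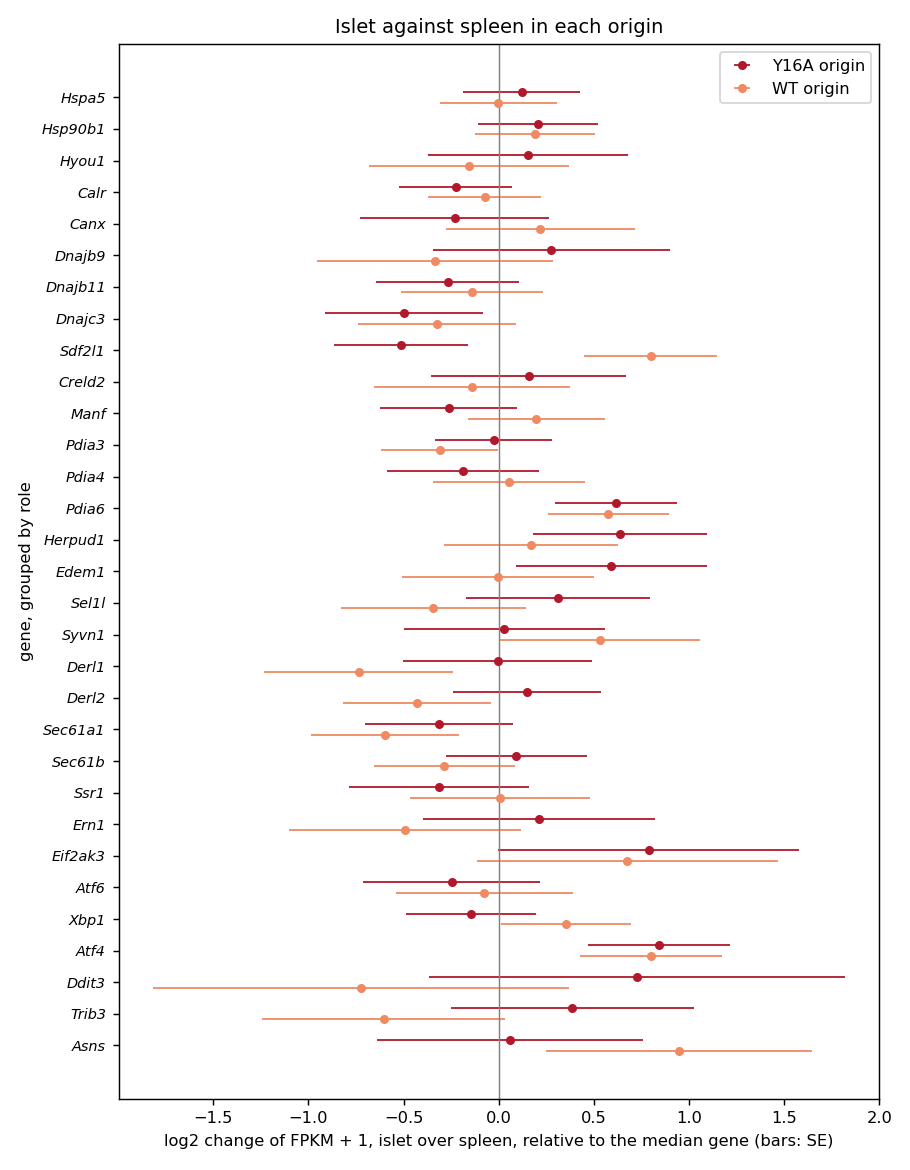
Log2 change of FPKM + 1, islet over spleen, for the 31 tested genes in Y16A origin (dark red) and WT origin (orange), relative to the median gene; bars are SE from the limma fit. Atf4 (0.84 and 0.80) and Pdia6 (0.62 and 0.58) lay to the right in both origins. Sdf2l1, with 0.80 in WT, lay on opposite sides, as did other members such as Ddit3.

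The second question was whether Y16A and WT cells differ within a tissue. In islet, 0 of 31 members passed the limma test, beside 0.0% of all tested genes, and 1 member, Sdf2l1, had an unadjusted p under 0.05, beside 4.71% of tested genes. In spleen, 0 of 31 members passed, beside 0.0%, and 0 had an unadjusted p under 0.05, beside 5.2%. The members' median log2 change, Y16A over WT, was 0 in islet and -0.11 in spleen, beside -0.06 and -0.01 over all tested genes, relative to shifts of 0.256 and 0.073. The values of the groups did not overlap for 2 members in islet, Sdf2l1 and Xbp1, both lower in Y16A, beside 10.1% of tested genes. They did not overlap for 2 members in spleen, beside 9.13%. Of these, Dnajc3 had 13.7 to 17.5 FPKM in spleen Y16A and 6.02 to 13.0 FPKM in spleen WT libraries, and Derl2 had 5.35 to 7.26 FPKM in spleen Y16A and 8.69 to 10.1 FPKM in spleen WT libraries. The test of whether the tissue difference depends on origin called 0 of 31 members, beside 0.0% of tested genes, and 1 member, Sdf2l1, had an unadjusted p under 0.05, beside 4.3%. The authors' deposited table for islet Y16A against islet WT holds 38 entries for 30 members. None of them has a q under 0.05 there, beside 91 of the 9815 entries of that table. At a p under 0.05 there are 2, beside 6.59% of all its entries. The second is Manf, listed in that table at 69.4 and 102 FPKM in islet Y16A and islet WT, with q 0.714.

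The other genes of the pathway were taken from 5 lists of 112 genes on folding and oxidation, degradation, translocation, sensors and translation control, and the ATF4 programme, of which 99 were tested. In islet against spleen, 1 of 99 passed in Y16A cells, beside 1.17% of all tested genes, and 1 of 99 in WT cells, beside 0.813%. Over both origins 4 of 99 passed, beside 2.31% of all tested genes, each of them higher in islet. In Y16A against WT 0 of 99 passed in either tissue, with 5 genes in islet, beside 4.71% of tested genes, and 2 in spleen, beside 5.2%, at an unadjusted p under 0.05 in limma. Ppp1r15a encodes GADD34, which brings a phosphatase to eIF2alpha and restores translation. It had 87.3, 48.4 and 54.6 FPKM in islet Y16A and 30.9, 29.3 and 68.8 FPKM in islet WT libraries, against 12.4, 4.00 and 4.17 FPKM in spleen Y16A and 2.95, 4.23 and 4.34 FPKM in spleen WT libraries. The lowest islet library lay above the highest spleen library by more than the range of the spleen libraries. The log2 change was 2.82 with an SE of 0.47 in Y16A (limma adjusted p 0.00062) and 2.93 with an SE of 0.47 in WT (adjusted p 0.000885), in 6 of 6 mice. Ppp1r15a passed under every alternative setting run and without each of the 12 libraries. Its gene overlaps Tulp2 on the opposite strand.

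Atf3, a transcription factor induced by ATF4 and by other stress signals, had 9.24, 1.66 and 7.15 FPKM in islet Y16A and 10.5, 2.59 and 2.46 FPKM in islet WT libraries. In spleen it had 1.47 FPKM in Y16A 2 and was listed at 0 in the other 5 libraries. Over both origins its difference on the log2(FPKM + 1) scale was 2.03 with an SE of 0.43 (limma adjusted p 0.00489), a size that depends on the pseudocount and is no fold change. Cebpb, a transcription factor that pairs with ATF4 family members, had 19.2, 28.2 and 37.4 FPKM in islet Y16A and 15.99, 16.6 and 22.2 FPKM in islet WT libraries. In spleen it had 15.9, 17.3 and 10.2 FPKM in Y16A and 8.28, 3.38 and 7.29 FPKM in WT libraries. Its log2 change over both origins was 0.93 with an SE of 0.30 (limma adjusted p 0.0439), and the call was lost without any 1 of 10 libraries, the exceptions being islet Y16A 1 and spleen WT 1, with adjusted p up to 0.126. With the mouse as a block its limma adjusted p was 0.054. Dad1, a subunit of the oligosaccharyltransferase that adds glycans in the ER, ranged from 477 to 504 FPKM in islet Y16A and 326 to 484 FPKM in islet WT libraries, against 234 to 329 FPKM in spleen Y16A and 198 to 312 FPKM in spleen WT libraries. Its log2 change over both origins was 0.49 with an SE of 0.18 (limma adjusted p 0.0356), and the call was lost without any 1 of 10 libraries, the exceptions being islet WT 1 and spleen WT 2, with adjusted p up to 0.11. The ATF4 programme list as a whole had a median log2 change over both origins of -0.10, beside -0.08 over all tested genes. In this list 2 of 30 were called, beside 2.31% of all tested genes, the share for each list below as well. The median stood at 0.01 for folding and oxidation with 1 of 22 called, and at -0.01 for sensors and translation control with 1 of 14 called. The lists on degradation and translocation had 0 of 14 and 0 of 19 called. At an unadjusted p under 0.05 in limma they had 0 and 1 genes, beside 13.6% of tested genes.

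**Figure D4:**
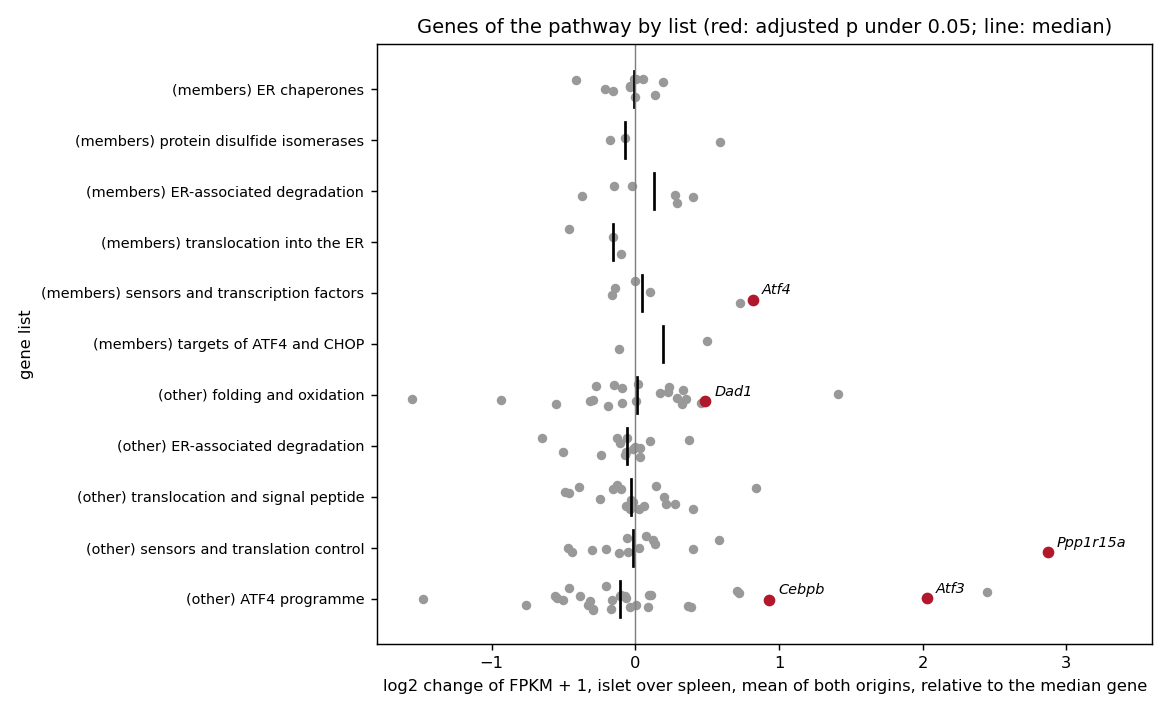
Log2 change of FPKM + 1, islet over spleen, mean of both origins, relative to the median gene, for each tested gene (points) of the 6 lists of members and 5 lists of other pathway genes; vertical bars are list medians and red points passed an adjusted p under 0.05. The 5 called genes were Atf4, Ppp1r15a, Atf3, Cebpb and Dad1, while the list medians lay near 0.

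The promoters of these genes are shown because the arms of the response act through known elements, so the members that carry an element can be named. The windows are from RefSeq on GRCm38.p6 (the C57BL/6J reference, not the NOD strain), from 250 bases before to 50 bases after the annotated start, and 28 of 33 members were matched (not Derl1, Manf, Hyou1, Atf6 and Sec61a1). Both strands were searched. The ER stress response element ERSE (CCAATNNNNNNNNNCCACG), read by NF-Y together with ATF6 and XBP1, was found in 9 of 28 members and in 37 of 27025 genes (0.137%). The related ERSE-II (ATTGGNCCACG), whose first 5 letters are CCAAT on the other strand, was found in 2 of 28 members and in 12 genes (0.0444%). These elements were defined in promoters of genes of this response, so the share is a description. The ERSE copies follow with 10 flanking bases on each side, on the strand of the element, with the fixed letters in capitals and the coordinates of the element alone.

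Hspa5 at chr2:34772025-34772043: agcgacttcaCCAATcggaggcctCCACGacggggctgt
Hsp90b1 at chr10:86705638-86705656: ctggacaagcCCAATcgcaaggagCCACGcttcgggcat
Hsp90b1 at chr10:86705533-86705551: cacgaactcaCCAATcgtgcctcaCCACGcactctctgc
Calr at chr8:84847075-84847093: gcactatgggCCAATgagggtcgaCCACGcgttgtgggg
Canx at chr11:50325800-50325818: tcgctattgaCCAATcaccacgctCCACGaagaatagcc
Dnajc3 at chr14:118937827-118937845: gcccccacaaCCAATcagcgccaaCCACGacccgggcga
Creld2 at chr15:88819520-88819538: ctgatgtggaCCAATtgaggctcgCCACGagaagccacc
Pdia6 at chr12:17266491-17266509: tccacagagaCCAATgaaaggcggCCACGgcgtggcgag
Syvn1 at chr19:6046532-6046550: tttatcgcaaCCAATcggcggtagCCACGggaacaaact
Derl3 at chr10:75893242-75893260: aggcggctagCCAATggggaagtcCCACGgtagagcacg

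The ERSE-II copies are given in the same way, with the fixed letters in capitals.

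Dnajb11 at chr16:22857852-22857862: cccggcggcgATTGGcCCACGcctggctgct
Herpud1 at chr8:94386377-94386387: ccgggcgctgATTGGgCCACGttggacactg

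Of the 11 members with an ERSE or ERSE-II, 10 were tested and 0 passed in limma, beside 2.31% of all tested genes over both origins. With 10 genes, 0 calls cannot be told from that share. Their log2 changes over both origins ran from -0.42 to 0.59 with a median of 0.03, beside -0.02 over all tested members. Within origins the median was 0.07 in Y16A and 0.08 in WT cells. Pdia6, at 0.59, and Dnajc3, at the other end, both carry the element. The CEBP-ATF response element CARE (TGATGNAAN), read by ATF4 with a CEBP partner, was found in 4 of 28 members, in 12 of 91 other pathway genes and in 4.5% of all genes. Of the members with a CARE, Herpud1, Trib3 and Asns were not called and Chac1 was not tested. The called genes Atf4, Ppp1r15a and Cebpb had no copy in their windows. The copies in members and in the called gene Atf3, 1 of the 12 other genes, are shown with the fixed letters in capitals.

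Herpud1 at chr8:94386316-94386324: gggtgcgggcTGATGcAAcccgccgtggt
Trib3 at chr2:152344039-152344047: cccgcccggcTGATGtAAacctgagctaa
Asns at chr6:7693224-7693232: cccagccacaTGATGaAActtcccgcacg
Chac1 at chr2:119351048-119351056: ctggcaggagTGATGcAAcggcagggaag
Atf3 at chr1:191183436-191183444: gcggacttggTGATGcAAgtgcgagaagg

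The cyclic AMP response element CRE (TGACGTCA) was found in 0 of 28 members, in 1 of 91 other pathway genes, Ppp1r15a, and in 2.03% of all genes. The whole windows of Hspa5, Atf4 and Ppp1r15a are printed on the strand of the gene for comparison of the chaperone, the called member and the gene called in both origins. Capitals mark the ERSE in Hspa5, each CCAAT and CCACG on this strand in Atf4, where they do not form an ERSE, and the CRE in Ppp1r15a. CCAAT alone stands in 41.1% and CCACG alone in 35.5% of all windows, so the capitals in Atf4 are no match to an element.

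Hspa5 at chr2:34771840-34772139: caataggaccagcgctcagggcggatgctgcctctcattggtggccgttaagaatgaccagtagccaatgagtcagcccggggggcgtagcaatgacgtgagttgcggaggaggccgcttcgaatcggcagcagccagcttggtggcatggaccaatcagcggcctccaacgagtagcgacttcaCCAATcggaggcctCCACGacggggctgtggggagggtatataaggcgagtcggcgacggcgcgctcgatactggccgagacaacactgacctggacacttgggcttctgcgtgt

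Atf4 at chr15:80254934-80255233: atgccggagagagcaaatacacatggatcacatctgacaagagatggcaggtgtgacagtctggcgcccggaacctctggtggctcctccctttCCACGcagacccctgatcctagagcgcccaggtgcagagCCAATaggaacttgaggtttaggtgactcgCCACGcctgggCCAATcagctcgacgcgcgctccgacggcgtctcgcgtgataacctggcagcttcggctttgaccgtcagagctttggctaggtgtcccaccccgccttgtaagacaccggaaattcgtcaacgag

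Ppp1r15a at chr7:45526219-45526518: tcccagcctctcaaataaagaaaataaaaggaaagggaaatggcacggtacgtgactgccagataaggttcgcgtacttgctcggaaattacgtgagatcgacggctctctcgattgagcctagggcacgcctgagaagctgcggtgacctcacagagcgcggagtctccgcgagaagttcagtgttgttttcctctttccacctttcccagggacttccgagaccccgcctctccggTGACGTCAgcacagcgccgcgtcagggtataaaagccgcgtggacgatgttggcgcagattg

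**Figure D5:**
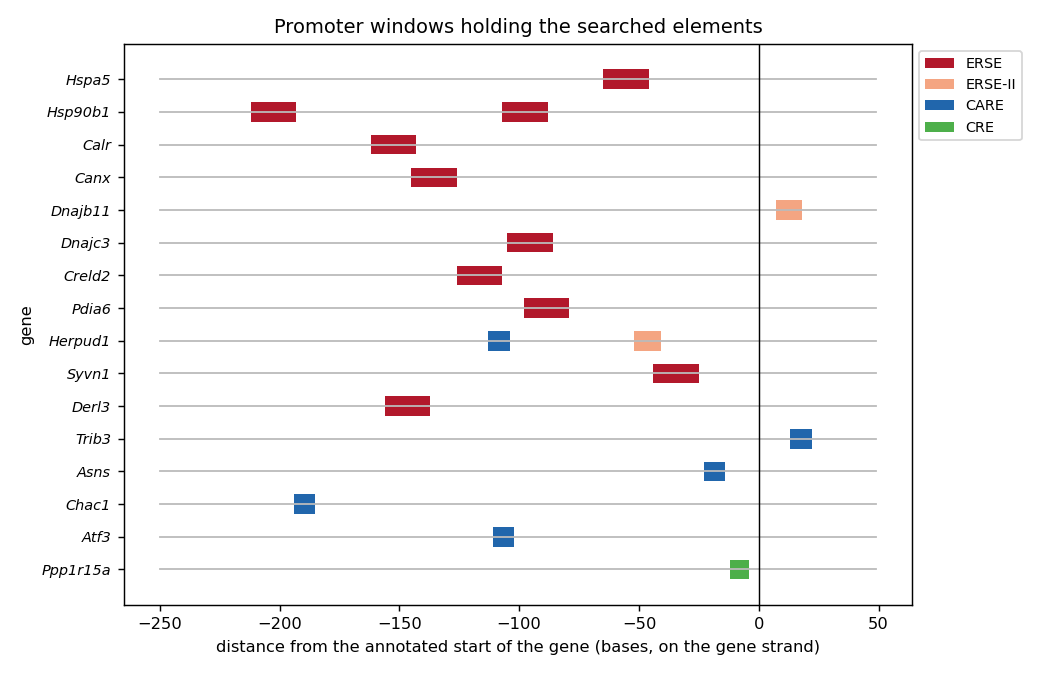
Position of ERSE, ERSE-II, CARE and CRE copies in the promoter windows of members and of Atf3 and Ppp1r15a, in bases from the annotated start on the gene strand (negative is upstream). Hsp90b1 holds 2 ERSE copies, Herpud1 holds both an ERSE-II and a CARE, and Ppp1r15a holds a CRE just upstream of its start.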

How the data were processed

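Per the submitters' processing notes, the authors used TopHat 1.0.0, Cufflinks and mm9. The deposited matrix gives, for each transcript entry, the FPKM in 12 libraries. These were made from Triton X-100 lysates by reverse transcription, cDNA amplification and Nextera XT, per the labels' protocols. Amplified cDNA fragments are not independent molecules. For islet Y16A against islet WT, the authors' deposited table lists an FPKM of each condition, a p-value and a q-value. Its values are quoted as theirs.

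Of 36285 entries, 99.71% (36181) matched a gene through RefSeq and GENCODE tables, and entries were summed per gene. log2(FPKM + 1) of 10089 genes was fitted with limma (version 3.58.1, in R 4.3.3 with statmod 1.5.0), using 4 group means, 8 residual degrees of freedom and trended, robust empirical Bayes, with Benjamini-Hochberg adjustment. The fit was run on simulated data with independent noise and changes planted in genes above 20 FPKM. Other cells' RNA and shifts between libraries were not simulated, so the run does not cover them. Alternatives were the pseudocount (0.1 and 0.5), the filter, the scaling, the moderation, the transcript entry, a block and each library left out. Depth was estimated from the steps of low FPKM values, of which 66.5 to 76.2% lay within 0.25 of a whole fragment. The depth was chosen to bring these same values near whole fragments, so this share is no separate check of it.

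Log2 changes were printed for members that passed, for those with an unadjusted p under 0.05 and groups that did not overlap, and for Hspa5, Xbp1, Atf4 and Ddit3 in islet against spleen. The interaction value of Sdf2l1, the changes of Hsp90b1 and the ranges of other members were added to this after their values were seen. The members, lists and tests were chosen with earlier results of these data known. The titles pair islet and spleen libraries by mouse, and deviations from group means correlated between libraries of a mouse at -0.032 to 0.075 (median 0.047). The titles number 3 recipient mice per origin, and no label says that these received cells of separate donor cultures.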

Additional observations from a re-analysis of the deposited data

How the results depend on the processing

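With 3 libraries a group, SEs of single members between 2 groups ran to 1.09 on the log2 scale, so small changes could not be seen. The number of called members was 0 under every alternative run for islet against spleen of each origin, Y16A against WT in each tissue and the interaction. Over both origins the count of 1 member became 0 with no filter on low values, with rescaling without the markers of other cells, with limma without trend and robust moderation and with the highest transcript entry per gene. It became 2 with a mean of at least 5 FPKM, where Pdia6 joined Atf4 at an adjusted p of 0.0351 (limma). Leaving out 1 library at a time gave 0 to 1. Atf4 held in 6 of 10 other settings, at log2 changes of 0.67 to 0.82 and adjusted p of 0.0189 to 0.171 in limma. The cause was not tested.

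Over all genes, islet against spleen in Y16A gave 76 calls with rescaling without the markers, against 118, and 84 to 138 with 1 library left out. In WT it gave 60 to 91 with 1 library left out, and over both origins 140 with no filter, against 233, and 168 to 247 with 1 library left out. Y16A against WT gave 1 call in islet with a pseudocount of 0.1, and 1 in spleen with a pseudocount of 0.1, quantile normalization or rescaling. Leaving out 1 library gave 0 to 1 calls in islet, in spleen and for the interaction. The mouse as a block gave 134, 90 and 262 calls for islet against spleen (Y16A, WT, both) and 0 for the interaction, and changed no call of a member. It ended the call of Cebpb (adjusted p 0.054, limma). The replicate number as a block, which names different mice, gave 0 calls for Y16A against WT in both tissues.

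Values near 0 changed sign. Hspa5, islet over spleen, was -0.02 in Y16A and 0.06 in WT with the highest transcript entry. With 1 library left out it ran from 0 to 0.21 in Y16A and from -0.07 to 0.06 in WT, Xbp1 in Y16A ran from -0.28 to 0, and Ddit3 in WT ran from -1.51 to 0.74, none of them called. Also with 1 library left out, Xbp1 in WT ran from 0.09 to 0.60 and Ddit3 in Y16A from 0.18 to 1.18. The other changes of single genes that were recomputed kept their direction. The interaction of Sdf2l1, the changes of Hsp90b1, the ranges over members and the list medians were not recomputed. Cebpb held in 4 of 10 and Dad1 in 5 of 10 other settings.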
